A study of Mus musculus with 2 samples.

Results

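The Hox cluster genes were followed in single-cell RNA sequencing of the whole cerebellum of mouse embryos. They were taken as every symbol made of Hox, a cluster letter from a to d and a number, which gave 39 of the 32285 genes measured. Of these, 11 belong to the Hoxa cluster, 10 to Hoxb, 9 to Hoxc and 9 to Hoxd, and the number in the symbol is the paralogue group. The control embryos were cre-negative. The mutant embryos carried Blbp-cre together with the alleles Ctnnb1(ex3)fl/wt and Smarca4fl/fl. The Blbp (Fabp7) promoter drives cre in radial glia, where it acts on a floxed exon of 1 copy of Ctnnb1 and on both copies of Smarca4, and the study describes proliferative lesions in these cerebella. Loss of that exon stabilises beta-catenin, which carries the Wnt signal, while SMARCA4 is the motor subunit of SWI/SNF chromatin remodellers. Both groups were at E16.5, dead cells had been removed by sorting with 7-AAD, and 3 samples per genotype had been pooled into 1 library. There was therefore 1 control and 1 mutant library and no replicate, so no difference could be tested. Intervals are exact 95% intervals of counting error only.

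After filtering, 15969 control and 15864 mutant cells remained, with medians of 10016 and 9714 UMIs (unique molecular identifiers, which mark single captured transcripts). The libraries shared 64 barcodes among kept cells. Levels are given as CPM, UMIs per 1000000 UMIs of the same cells. Smarca4 stood at 68.2 CPM in the control library against 49.5 in the mutant one, and Ctnnb1 at 118 and 172 CPM; reads from transcript ends need not cover the floxed exons, so they do not check the deletion. A lesion gate, at least 4 of the 8 genes Wif1, Fstl4, Adamts19, Notum, Hpse2, Lgr6, Rgs6 and Nkd1 detected, was passed by 12 control and 4831 mutant cells. These 8 genes were picked from earlier results of the same libraries, so the split between the libraries follows from that choice.

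Hox genes encode homeodomain transcription factors that give cells their position along the head to tail axis. Within a cluster they lie in the order in which they are switched on, the low-numbered genes anterior and early, the high-numbered genes posterior and late. Retinoic acid, Wnt signals and CDX factors activate them, Polycomb complexes keep them silent where they are not used, and MEIS and PBX proteins bind DNA together with their products. The cerebellum arises from the first rhombomere, which is known for lacking Hox expression, whereas the hindbrain behind it carries anterior Hox genes and the spinal cord posterior ones.

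The promoters of 4 members are shown because these genes lie at the ends of the range described next: Hoxb1 and Hoxb8 were among the members highest in the mutant relative to the control library, Hoxc4 was the lowest of the called members, and Hoxa2 is an abundant anterior gene that was lower. Each line holds the 250 bases before the RefSeq start in GRCm38.p6, in the direction of transcription. Capitals mark TGATNNAT on either strand, a pattern bound by PBX and HOX proteins together. The 4 stretches lie at chr11:96365508-96365757 (Hoxb1, plus strand), chr11:96281655-96281904 (Hoxb8, plus strand), chr6:52164832-52165081 (Hoxa2, minus strand) and chr15:103034145-103034394 (Hoxc4, plus strand).
Hoxb1: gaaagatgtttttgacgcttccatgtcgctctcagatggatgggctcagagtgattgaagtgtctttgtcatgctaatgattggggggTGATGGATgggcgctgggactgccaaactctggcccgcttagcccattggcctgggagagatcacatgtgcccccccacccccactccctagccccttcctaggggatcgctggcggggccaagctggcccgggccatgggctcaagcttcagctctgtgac
Hoxb8: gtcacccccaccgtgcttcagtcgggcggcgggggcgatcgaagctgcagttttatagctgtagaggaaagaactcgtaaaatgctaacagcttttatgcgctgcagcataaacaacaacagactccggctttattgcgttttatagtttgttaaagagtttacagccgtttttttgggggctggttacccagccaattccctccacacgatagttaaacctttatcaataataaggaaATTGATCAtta
Hoxa2: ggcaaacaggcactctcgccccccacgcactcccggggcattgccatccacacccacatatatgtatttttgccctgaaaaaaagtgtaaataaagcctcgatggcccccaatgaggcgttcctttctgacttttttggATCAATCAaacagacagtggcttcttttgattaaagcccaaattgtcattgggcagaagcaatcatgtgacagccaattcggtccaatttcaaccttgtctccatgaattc
Hoxc4: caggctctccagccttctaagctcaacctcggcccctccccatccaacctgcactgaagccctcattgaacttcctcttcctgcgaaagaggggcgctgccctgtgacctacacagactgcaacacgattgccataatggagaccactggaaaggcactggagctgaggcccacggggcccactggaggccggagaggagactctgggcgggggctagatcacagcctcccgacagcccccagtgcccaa
Hoxb1 is known for an autoregulatory region with PBX-HOX sites, and its promoter held 1 match, as did those of Hoxb8 and Hoxa2, while Hoxc4 had none. RefSeq promoters of 300 bases, which run on 50 bases past the start, matched 22 of the 39 members with 24 entries. TGATNNAT stood in 4 of these 24 entries (16.7%) and in 8.85% of all 32851 promoters. CTTTGA, the core bound by the Wnt effectors TCF and LEF, stood in 4 of the 24 entries and in 5257 of all promoters. Both patterns were counted on both strands, and they can share the letters TGA. Hoxb8 in the higher set and Hoxa2 in the lower set both hold TGATNNAT.

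Hox UMIs were fewer in the mutant library. The 39 genes gave 6475 control UMIs (36.8 CPM, 35.9 to 37.7) and 2839 mutant UMIs (16.4 CPM, 15.8 to 16.98), and the mutant level divided by the control level, called the ratio from here on, was 0.44 (0.43 to 0.46). At least 1 Hox UMI was seen in 1703 control cells (10.7%) and 1102 mutant cells (6.95%), with a mean of 3.80 and 2.58 UMIs per carrying cell. The direction differed along the clusters: groups 1 to 5 went from 6459 to 2528 UMIs, a ratio of 0.40 (0.38 to 0.42), and groups 6 to 13 from 16 to 311 UMIs, a ratio of 19.7 (11.9 to 34.9). Posterior groups made up 0.247% of control and 10.95% of mutant Hox UMIs. By cluster the ratio was 0.44 for Hoxa, 0.50 for Hoxb, 0.11 (0.073 to 0.16) for Hoxc and 0.26 (0.20 to 0.32) for Hoxd. In such a sum, fewer Hox-expressing cells and fewer transcripts per cell both lower the value.

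A member was called lower or higher at a 1.5-fold ratio with the counting interval on one side of 1 and at least 20 UMIs in both libraries together. Of the 39 members, 13 had no UMI in either library, 6 had 1 to 19 and 20 reached the minimum. Of these 20, 9 were lower, 7 were higher and 4 were not called. Over all 21216 genes at the minimum, 9.04% were called lower and 13.9% higher. All 7 higher members had 0 to 6 control UMIs and reached the minimum only through the mutant library. A higher call was thus close to fixed for them, here and in the counts for neurons and without lesion-gate cells below. The control library held UMIs of 19 members and the mutant library of 26.

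**Figure D1:**
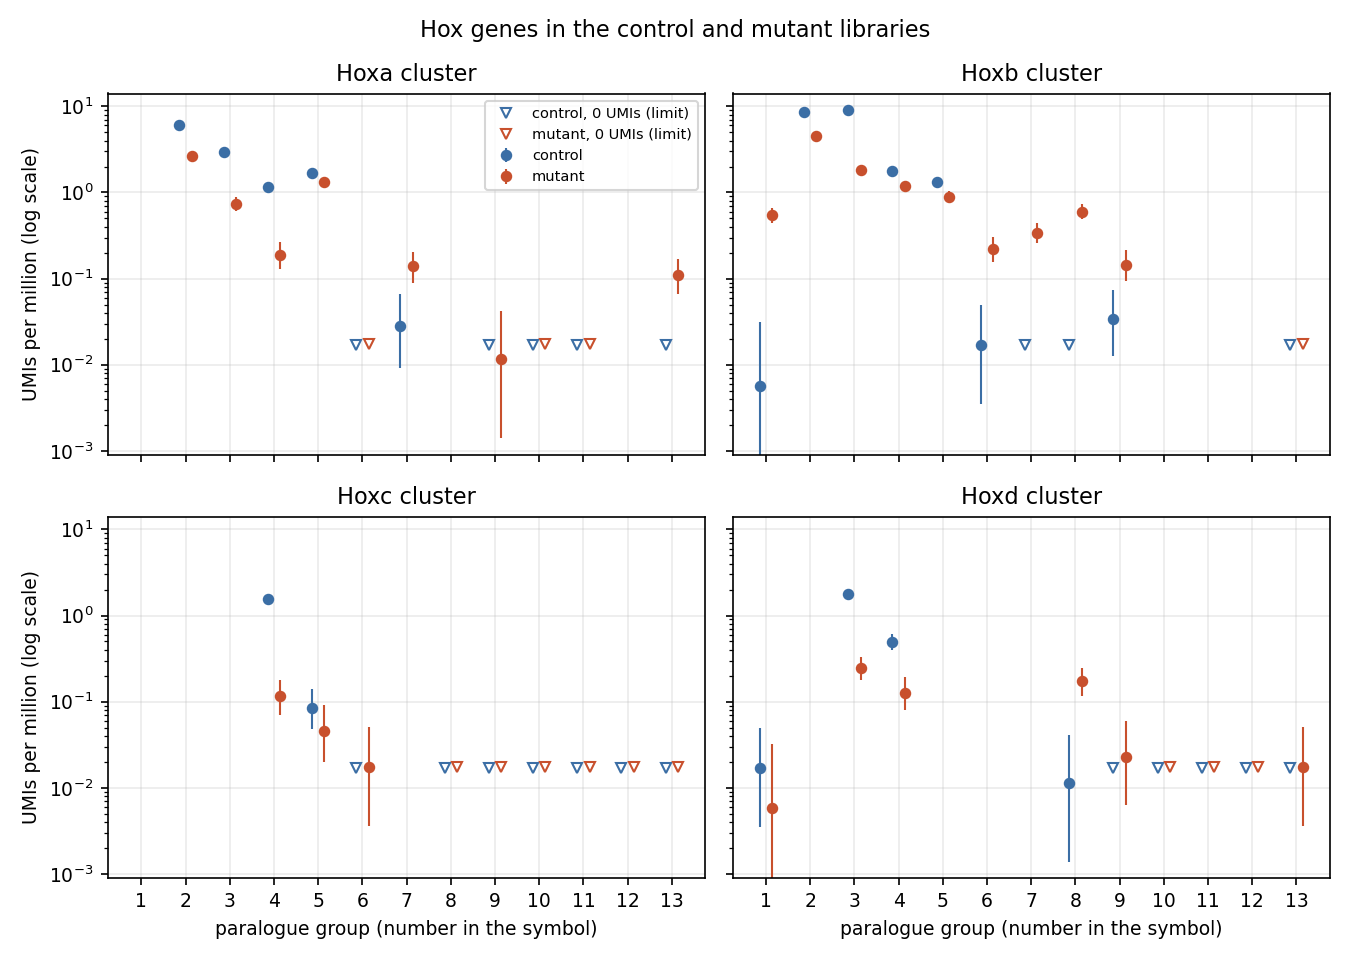
CPM (log scale) of Hox genes against their paralogue group, 1 panel per cluster, in the control (blue) and mutant (red) library; bars are exact 95% Poisson intervals and open triangles stand at the limit of 3 UMIs that a count of 0 allows. Blue points lie above red ones in groups 2 to 4, whereas in groups 6 to 9 of the Hoxb cluster red points lie above blue points or limits.

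In group 1, Hoxb1, which marks the fourth rhombomere of the hindbrain, had 1 UMI in 1 control cell and 94 UMIs in 45 mutant cells, a ratio of 95.3 (16.7 to 3804). Of those 45 cells, 39 passed the lesion gate and held 85 of the 94 UMIs. Hoxd1 had 3 and 1 UMIs.

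Group 2 held the genes with the most carrying cells. Hoxa2, which patterns the second pharyngeal arch and the hindbrain, had 1075 UMIs in 666 control cells and 462 in 338 mutant cells, a ratio of 0.44 (0.39 to 0.49). Hoxb2 had 1502 UMIs in 903 control cells and 795 in 529 mutant cells, a ratio of 0.54 (0.49 to 0.59). The group as a whole stood at 0.49 (0.46 to 0.53).

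Group 3 was lower by more. Hoxb3 had 1598 UMIs in 584 control cells and 317 in 224 mutant cells, a ratio of 0.20 (0.18 to 0.23). Hoxa3, needed for thymus, parathyroid and hindbrain patterning, had 517 UMIs in the control against 128 in the mutant library, a ratio of 0.25 (0.21 to 0.31). Hoxd3 had 316 and 43 UMIs, a ratio of 0.14 (0.098 to 0.19). Hoxb2 and Hoxb3 are neighbours on chromosome 11, and their intervals did not overlap. Both overlap Hoxb3os on the opposite strand, and the sources used here do not say whether counting used the strand, so reads of the antisense partner cannot be told apart from theirs.

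Of groups 2 to 5, group 4 had the widest spread of ratios. Hoxc4 had 274 UMIs in 99 control cells and 20 in 9 mutant cells, a ratio of 0.074 (0.045 to 0.12). Hoxa4 had 202 and 33 UMIs, a ratio of 0.17 (0.11 to 0.24), and Hoxd4 had 87 and 22, a ratio of 0.26 (0.15 to 0.41). Hoxb4, known for expanding blood stem cells when forced, had 311 UMIs in 193 control cells and 205 in 94 mutant cells, a ratio of 0.67 (0.56 to 0.80), and was not called. The members of group 4 in the Hoxa, Hoxc and Hoxd clusters thus lay below their Hoxb paralogue. Hoxa3 overlaps Hoxa4 and Hoxa5 on the same strand, as Hoxd3 does Hoxd4, and the sources do not say how shared reads were assigned among them.

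Group 5 was the anterior group nearest to the control level. Hoxa5, a regulator of lung and brainstem development, had 298 UMIs in 57 control cells and 232 in 53 mutant cells, a ratio of 0.79 (0.66 to 0.94). A few cells held much of it, up to 44 UMIs in 1 control and 40 in 1 mutant cell. Hoxb5 had 230 UMIs in 63 control cells and 153 in 41 mutant cells, a ratio of 0.67 (0.55 to 0.83). Neither was called, and neither was Hoxc5 with 15 and 8 UMIs. Over the group the ratio was 0.73 (0.64 to 0.84).

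Groups 6 to 9, which give trunk identity behind the hindbrain, had more UMIs in the mutant library. Hoxb8 had no UMI among the 15969 control cells and 104 UMIs in 44 mutant cells, at least 28.1-fold higher. For a control count of 0, such a value is the lower end of the exact interval of the ratio. Hoxb7 had none in the control and 59 in 22 mutant cells, at least 15.7-fold higher. Hoxb6 had 3 and 38 UMIs, a ratio of 12.8 (4.07 to 65.0). Hoxb9 had 6 and 25 UMIs, a ratio of 4.22 (1.69 to 12.6), with 5 of the 6 control UMIs in 1 cell of the Schwann cell or neural crest class. The 4 neighbouring genes Hoxb6 to Hoxb9 together went from 9 to 226 UMIs, a ratio of 25.5 (13.2 to 56.4).

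Outside the Hoxb cluster the posterior signal was thinner. Hoxd8 had 2 UMIs in 2 control cells and 30 in 26 mutant cells, a ratio of 15.2 (3.86 to 131). Hoxa7 had 5 and 24 UMIs, a ratio of 4.87 (1.82 to 16.3), and 9 of the 24 came from 1 cell. Hoxd9, Hoxc6, Hoxd13 and Hoxa9 had 0 control and 4, 3, 3 and 2 mutant UMIs. Groups 10 to 12 had no UMI in either library, which allows up to 0.017 CPM for each gene. Hoxa13, of the group that patterns the limb tips and hindgut, had 0 control UMIs and 19 mutant UMIs in 16 cells, 15 of which passed the lesion gate. At 19 UMIs it lay just under the minimum for a call and was at least 4.73-fold higher.

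The calls depended in part on the lesion-gate cells. Without them 9 members were lower, 4 higher and 3 not called, against 6.96% lower and 14.0% higher of 20776 genes. The 4 higher members were Hoxa7 (ratio 6.83), Hoxb6 (15.01), Hoxb7 (at least 17.3-fold) and Hoxb8 (at least 26.2-fold). Hoxb1, Hoxb9 and Hoxd8 then had fewer than 20 UMIs, with ratios of 13.97 (1.94 to 612), 1.81 (0.52 to 6.52) and 13.2 (3.13 to 118). Among the anterior genes Hoxb4 gained a lower call (0.59, 0.48 to 0.74) and Hoxc4, 15 of whose 20 mutant UMIs lay in lesion-gate cells, stood at 0.028 (0.0091 to 0.067). Hoxa5 stood at 1.17 (0.98 to 1.40), above 1 where it had been below.

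Cells were sorted into classes by gates on marker genes that hold no Hox gene. Neurons (at least 5 of 8 markers such as Stmn2 and Elavl3) held 4535 control Hox UMIs in 7379 cells and 1312 mutant Hox UMIs in 5501 cells. Their level was 49.2 CPM (47.7 to 50.6) in control and 19.6 CPM (18.6 to 20.7) in mutant neurons, a ratio of 0.40 (0.38 to 0.42). Neurons held 70.0% of control Hox UMIs (68.9 to 71.2) and 46.2% of mutant Hox UMIs (44.4 to 48.1), and 52.5% and 38.5% of all UMIs. Neurons that did not pass the lesion gate gave a ratio of 0.46 (0.43 to 0.49).

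Astroglial cells and choroid plexus cells were lower as well. Astroglial cells went from 38.9 CPM (36.4 to 41.5) to 14.6 CPM (13.2 to 16.2), a ratio of 0.38 (0.33 to 0.42). Choroid plexus cells, marked by Ttr, went from 28.1 to 14.2 CPM, a ratio of 0.50 (0.36 to 0.71). Oligodendrocyte precursors had 24.9 and 10.7 CPM on 25 and 4 UMIs, a ratio of 0.43 (0.11 to 1.24) that was not called, and the Schwann cell or neural crest class, under the minimum, had 33.5 and 15.5 CPM on 11 UMIs and 1 UMI. Granule cell precursors had 17.4 CPM in the control against 16.496 in the mutant library, a ratio of 0.95 whose interval of 0.73 to 1.21 covers 1.

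Meningeal fibroblasts were lower, whereas the 2 vascular classes were not called or lay under the minimum. Meningeal fibroblasts had 47 control and 20 mutant UMIs, 15.4 and 6.49 CPM, a ratio of 0.42 (0.24 to 0.73). Mural cells of the vessel wall had 26 and 16 UMIs, 19.8 and 11.7 CPM, a ratio of 0.59 (0.30 to 1.14), and endothelial cells 4 and 3 UMIs. Mutant cells that passed the lesion gate and no class gate stood at 14.8 CPM (13.3 to 16.48) on 339 UMIs, and no control cell fell there. Cells with no gate passed had 17.4 and 17.8 CPM, and cells with several gates, set apart as possible doublets, 20.9 and 16.01 CPM.

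**Figure D2:**
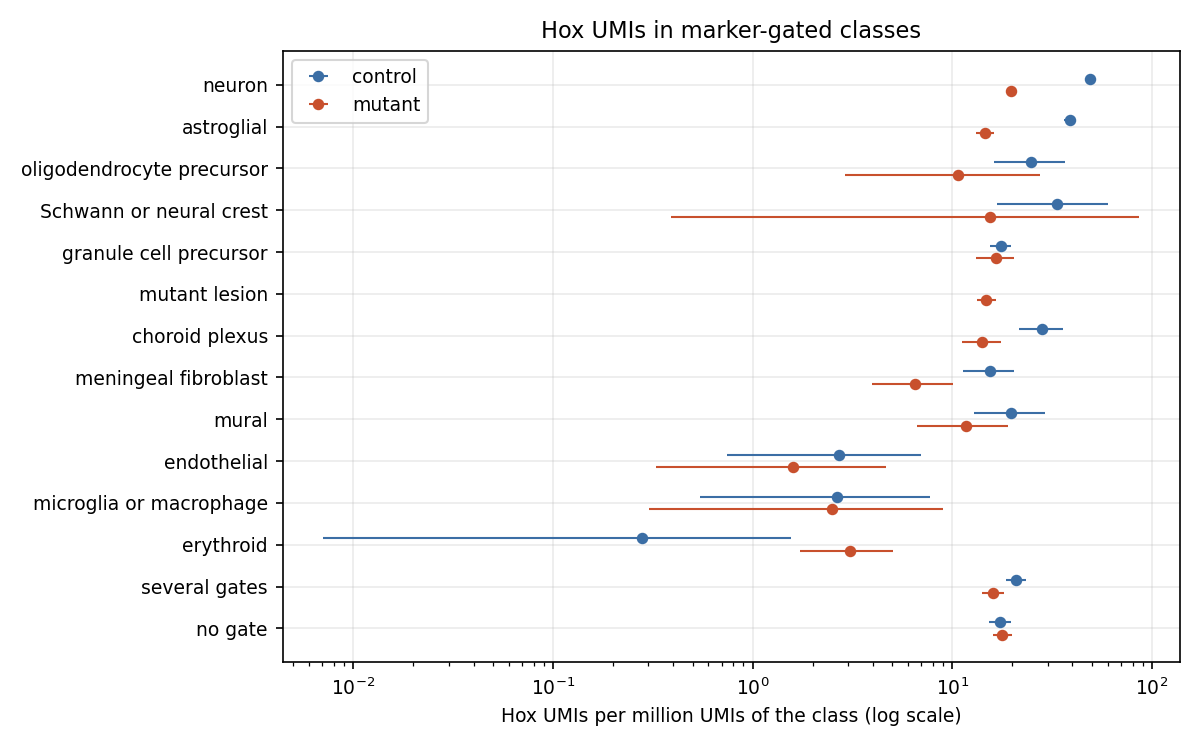
Hox CPM (log scale) in each marker-gated class of the control (blue) and mutant (red) library, with exact 95% Poisson intervals. Red lies left of blue in neurons, astroglial cells, choroid plexus and meningeal fibroblasts, the points lie close for cells with no gate, and erythroid cells show the opposite order on 1 control and 15 mutant UMIs.

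Free transcripts in droplets set a background that was read in blood and immune cells. A Hox UMI stood in 1 of 165 control erythroid cells (0.606%, median 21676 UMIs) and in 8 of 236 mutant ones (3.39%, median 20765 UMIs). Microglia or macrophages had 3 of 117 (2.56%, median 9110 UMIs) and 2 of 84 (2.38%, median 9406 UMIs). Neurons had a Hox UMI in 10.1% (median 11352 UMIs) and 7.49% (median 10795 UMIs). Endothelial cells, at 2.30% and 1.49%, lay below microglia or macrophages in both libraries. In erythroid cells the mutant library was the higher, at 0.279 and 3.07 CPM.

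With each neuron thinned to 3000 UMIs, 2 or more Hox UMIs remained in 3.39% of 7054 control neurons (2.98 to 3.84) and in 0.914% of 5362 mutant neurons (0.677 to 1.21). The shallower 325 and 139 neurons were left out, and the shares without thinning were 6.18% and 3.40%. Astroglial cells gave 1.72% and 0.850% at the thinned depth. With 1 or more Hox UMIs at this depth the order of the classes differed. Astroglial cells had 9.14% and 3.50%, choroid plexus cells 9.29% and 3.58%, and neurons 6.08% and 3.32%. At that depth 0 of 164 control and 0.426% of 235 mutant erythroid cells had 2 Hox UMIs, and 0 of 103 control and 0 of 64 mutant microglia. The interval of the mutant erythroid share reached 2.35%, above the share of mutant neurons, so this share alone does not set mutant neurons apart from background. The control neurons at 3.39% lay above the 2.22% that the control erythroid interval reached. The interval of the control microglia, with 0 of 103 cells, reached above 3.39%. Against microglia this share therefore does not set control neurons apart either.

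Within neurons the gates of 4 subclasses divided the Hox UMIs. Neurons with at least 4 of 8 granule lineage markers had 52.8 CPM in the control against 21.04 in the mutant library, a ratio of 0.40 (0.35 to 0.45). The PAX2 interneuron gate, for inhibitory cells, took at least 3 of the 5 markers Pax2, Slc6a5, Slc32a1, Gad2 and Pax8, so Pax2 itself was not required. Neurons of this gate had 123 CPM among control cells and 38.4 CPM on 7 UMIs of 14 mutant cells, a ratio of 0.31 (0.12 to 0.66). Of their 229 control UMIs 106 came from 1 cell, without which the control level was 67.2 CPM and the ratio of 0.57 (0.23 to 1.21) was not called. Of their 7 mutant UMIs 6 came from 1 cell, and without the richest cell of each library the ratio was 0.095 (0.0024 to 0.54). Unipolar brush cells had 36.4 and 46.4 CPM, a ratio of 1.27 (0.95 to 1.73). In each library 1 cell held most of these UMIs, with 60 of the 73 control and 101 of the 124 mutant UMIs. The ratio was 7.07 without the control cell, 0.24 without the mutant cell and 1.32 (0.64 to 2.84) without both. Neurons with dorsal midbrain markers were at 1.70 and 4.77 CPM. Neurons of no subclass numbered 1280 and 3495 and had 69.6 and 19.4 CPM, a ratio of 0.28 (0.25 to 0.31). The mix of subclasses differed between the libraries, with 4021 granule lineage neurons in the control against 801 in the mutant library, and its part in the neuron ratio was not tested.

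Gene by gene, 10 members were lower and 5 higher in neurons, beside 11.3% and 18.9% of 18630 genes. Hoxb3 went from 1304 to 118 UMIs there (ratio 0.12, 0.10 to 0.15) and Hoxc4 from 251 to 12 (0.066, 0.034 to 0.12). Hoxb4 and Hoxb5, not called over the library, were lower in neurons at 0.36 (0.27 to 0.48) and 0.56 (0.44 to 0.72). Hoxa5 stayed at 0.92 (0.76 to 1.12). Neurons held 56 of the 104 mutant UMIs of Hoxb8, 33 of the 59 of Hoxb7 and 47 of the 94 of Hoxb1. Neurons that passed the lesion gate as well held 40 of these 47 UMIs of Hoxb1, in 16 of 20 cells, but 10 of the 56 of Hoxb8 and 3 of the 33 of Hoxb7.

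In astroglial cells 9 members were lower and no member was higher, beside 10.7% and 7.91% of 16280 genes. Hoxb2 had 330 and 143 UMIs there (ratio 0.39, 0.31 to 0.47) and Hoxd3 76 and 10 (0.12, 0.054 to 0.23). Hoxb3 was at 0.53 (0.38 to 0.73) in astroglial cells, above its ratio in neurons with intervals that do not overlap; a test over samples was not possible with 1 library each. In granule cell precursors Hoxb2 and Hoxa2 had ratios of 1.25 (0.87 to 1.75) and 1.40 (0.82 to 2.33), and Hoxb3 was lower at 0.29 (0.090 to 0.72). Cells with no gate went the other way for 3 genes: Hoxa5 had 1 control and 37 mutant UMIs (ratio 27.8, 4.68 to 1126), Hoxb4 6 and 42 (5.25, 2.22 to 15.1) and Hoxb5 1 and 21 (15.8, 2.53 to 652). All 3 reached the minimum only through the mutant library, so a higher call was close to fixed for them. Their mutant UMIs lay in 16, 13 and 6 cells, in that order. The share of all genes called was computed neither for cells with no gate nor for granule cell precursors.

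The classes also differed in which groups made up their Hox UMIs. Control neurons drew 32.8% of their Hox UMIs from group 2 and 39.98% from group 3, and mutant neurons 40.5% and 15.02%. Group 5 gave 11.2% in control and 21.04% in mutant neurons, and groups 6 to 13 0.0882% and 12.1%. In astroglial cells the shares were closer, with 56.8% and 58.3% from group 2, 30.9% and 25.4% from group 3 and 0.219% and 1.55% from groups 6 to 13. Mutant cells of the lesion gate alone held 10.9% from group 1 and 23.6% from groups 6 to 13.

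**Figure D3:**
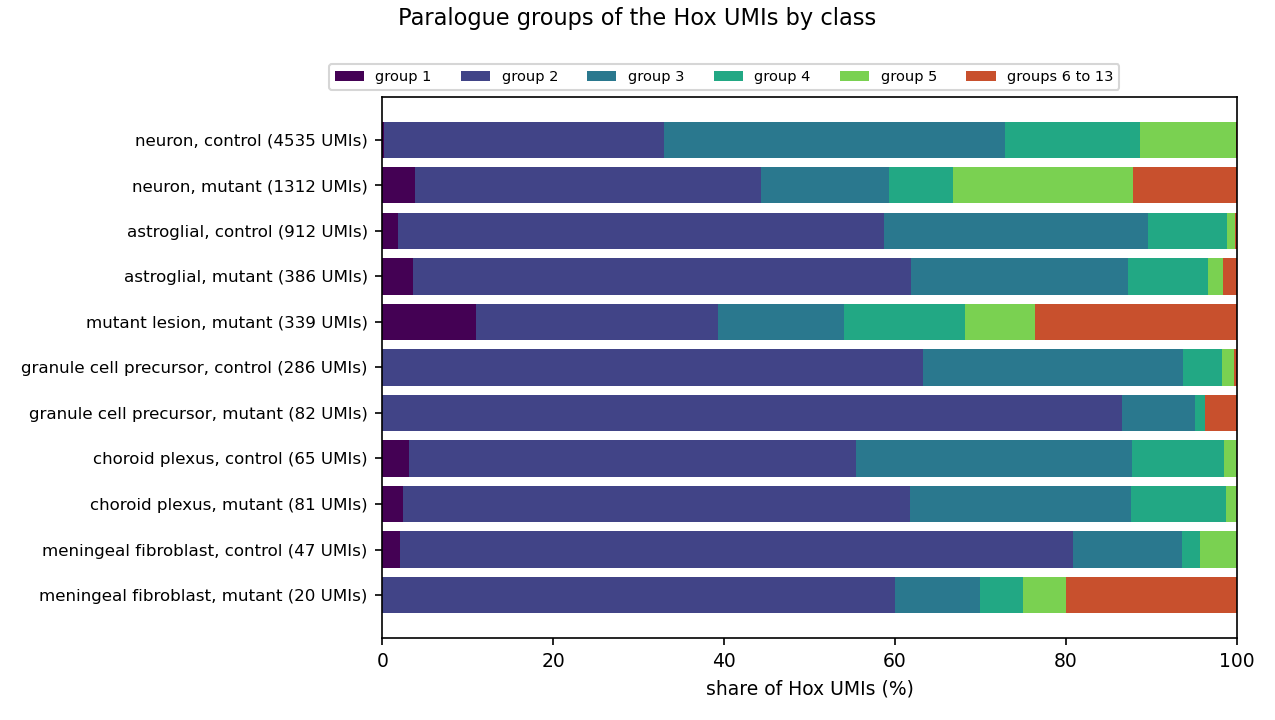
Share of Hox UMIs (%) from paralogue groups 1 to 5 and from groups 6 to 13 in 6 classes, by library. The red segment of groups 6 to 13 is 12.1% in mutant neurons and 23.6% in mutant lesion cells, and 0.0882% in control neurons.

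Posterior UMIs came from few cells. Groups 6 to 13 were seen in 12 control and 122 mutant cells, with 2 or more such UMIs in 1 and 43. Of the 122 mutant cells, 57 passed the lesion gate and held 121 of the 311 UMIs. By class, 48 were neurons, 32 lesion cells, 22 cells with no gate, 9 cells with several gates and 6 astroglial cells. The 3 richest mutant cells held 75 of the 311 UMIs, and the 3 richest control cells held 7 of 16. The ratio without the 3 richest cells of each library was 26.6, and it rests on the few control UMIs that remained.

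Single cells showed whole runs of the Hoxb cluster. The mutant cell with most posterior UMIs, a lesion cell with 13788 UMIs, held 3 UMIs of Hoxb1, 1 of Hoxb2, 2 of Hoxb3, 1 of Hoxb4, 4 of Hoxb5, 3 of Hoxb6, 7 of Hoxb7, 10 of Hoxb8 and 9 of Hoxb9, and none from the other clusters. A mutant neuron with 15102 UMIs held 12 of Hoxb7 and 14 of Hoxb8 beside 4 UMIs of Hoxb2, Hoxb3 and Hoxb6. The control cell with most Hox UMIs, a neuron of the PAX2 interneuron gate with 35366 UMIs, held 106 Hox UMIs from all 4 clusters. Among them were 44 of Hoxa5, 24 of Hoxb5, 11 of Hoxb3, 5 of Hoxc4 and 1 of Hoxd4. These cells were chosen after their values were seen.

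**Figure D4:**
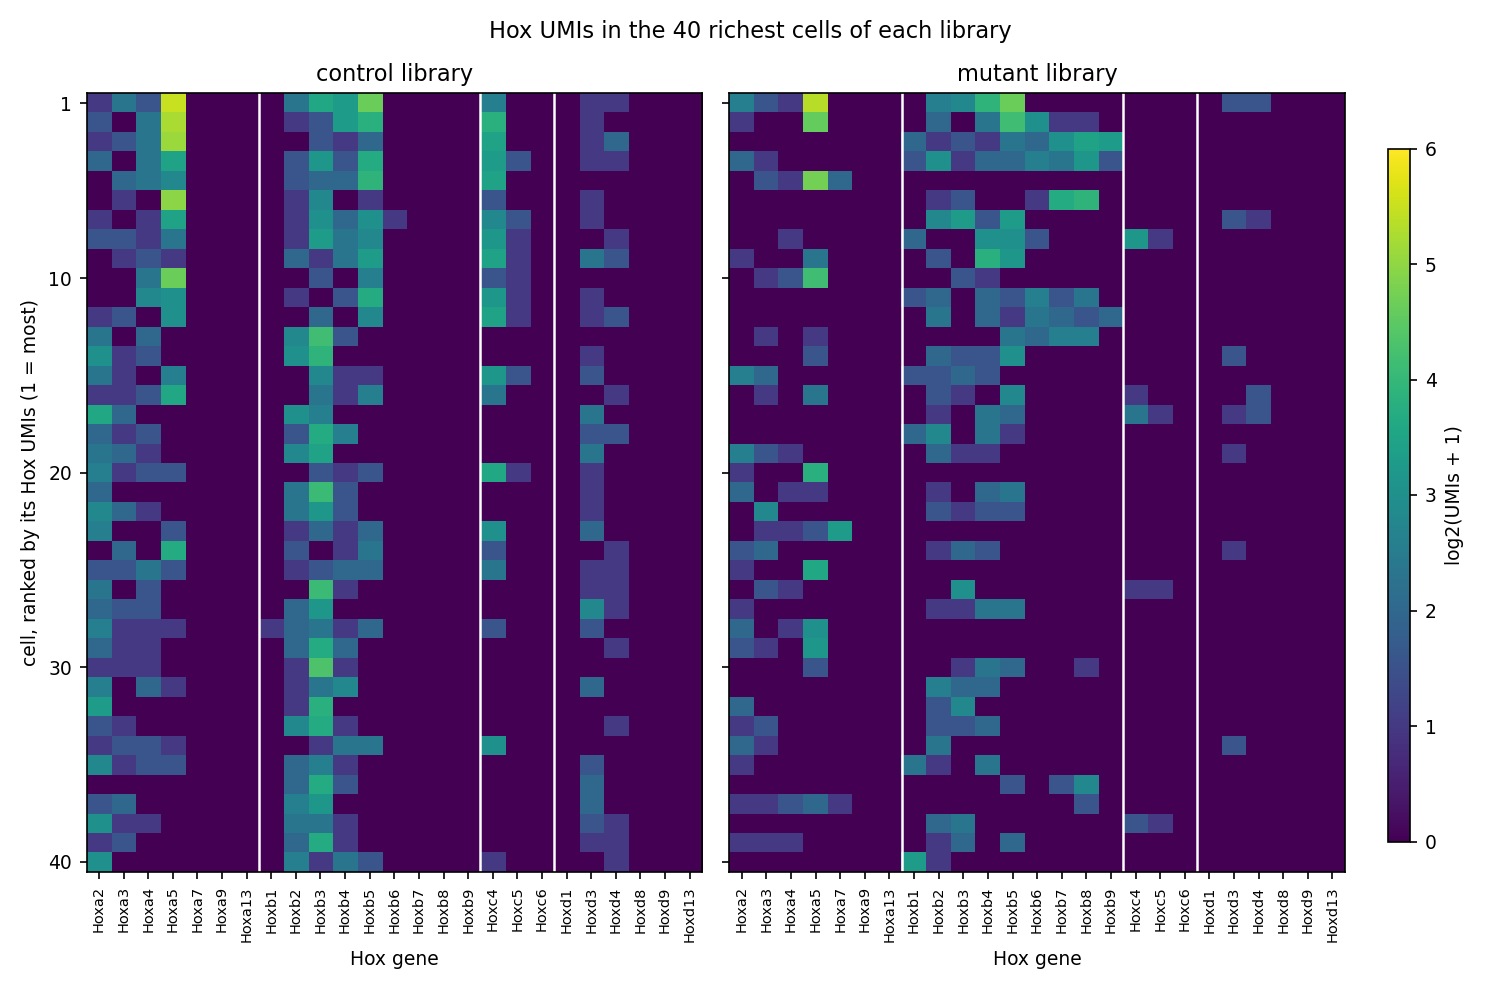
Hox UMIs as log2(UMIs + 1) in the 40 richest cells of each library (rows, ranked), by gene (columns, in cluster order, white lines between clusters). In the control panel 37 of 40 cells hold UMIs of at least 3 clusters and 21 hold Hoxc UMIs, and in the mutant panel 9 and 5 do.

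The spread over clusters was then counted in every cell with at least 4 Hox UMIs, 422 control and 167 mutant cells. All Hox UMIs came from 1 cluster in 28 control cells (6.64%) and in 75 mutant cells (44.9%), 57 of these 75 from Hoxb and 18 from Hoxa. UMIs of at least 3 clusters were seen in 44.1% of the control and 12.6% of the mutant cells. The chance that 2 Hox UMIs drawn from a cell share a cluster averaged 0.49 and 0.73.

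Mutant cells held fewer Hox UMIs, with a median of 6 against 8 in the control, so the count was repeated within ranges. With 4 to 9 Hox UMIs, 10.8% of 241 control and 48.8% of 125 mutant cells used 1 cluster. With 10 or more, 1.10% of 181 and 33.3% of 42 did. Among neurons the shares were 4.64% of 302 (14 cells) and 50% of 72 (36 cells), and among neurons that did not pass the lesion gate 4.64% and 46.8%. Astroglial cells were nearer to each other, at 10.3% of 68 and 28.0% of 25. Without cells that hold groups 6 to 13 the shares were 6.43% and 44.1%. Cells of 1 library are not replicates, so these shares describe the 2 libraries.

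**Figure D5:**
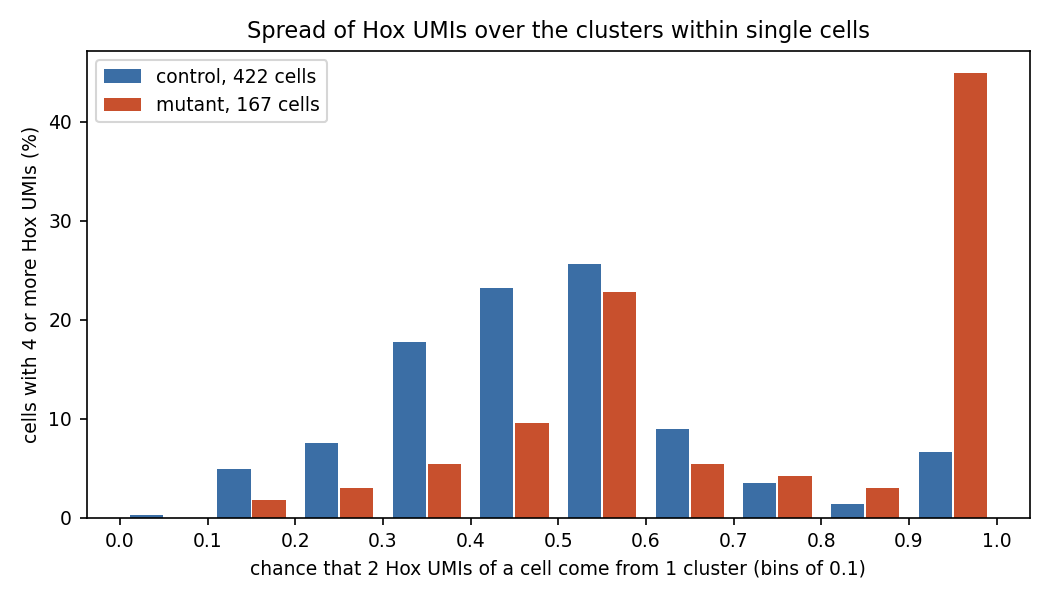
Chance that 2 Hox UMIs drawn from a cell come from the same cluster, in bins of 0.1, for cells with at least 4 Hox UMIs, as a share (%) of the 422 control (blue) and 167 mutant (red) cells. The last bin holds 44.9% of the mutant and 6.64% of the control cells.

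Pairs of genes were then counted in the same cells. Of the 63 control cells with Hoxb5, 69.8% also had Hoxc4, 52.4% Hoxa5 and 61.9% Hoxb4. Of the 41 mutant cells with Hoxb5, 12.2% had Hoxc4, 22.0% Hoxa5 and 61.0% Hoxb4, the Hoxb neighbour. Hoxc4 itself was in 99 control and 9 mutant cells, and of these 44.4% and 55.6% had Hoxb5. Of the 45 mutant cells with Hoxb1, 31 (68.9%) had Hoxb2 and 4 (8.89%) Hoxa2, genes seen in 529 and 338 of all mutant cells. Of the 44 mutant cells with Hoxb8, 15 (34.1%) had Hoxb7, 10 Hoxb5, 9 Hoxb4 and 7 each Hoxb2, Hoxb3 and Hoxa2. Over all mutant cells these genes were in 22, 41, 94, 529, 224 and 338 cells, in that order. A UMI of groups 6 to 13 was in 5 of the 45 cells with Hoxb1 (11.1%) and in 0.769% of all 15864 kept mutant cells. The share in the 1102 mutant cells with any Hox UMI (11.1%) is no like comparison, because such a UMI itself places a cell there. Of the 122 mutant cells with groups 6 to 13, 33 also held groups 1 to 5.

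Neurons with 2 or more Hox UMIs (456 control, 187 mutant) were compared with neurons that had none, within each library. Their median depths were 12298.5 and 14115 UMIs, against 11282 and 10632 for neurons without, and the part of depth in the values below was not tested. The gene most like the members was Hoxb3os, the antisense transcript that overlaps Hoxb3 and cannot be told apart from it without strand, at 84.2 against 2.30 CPM in control neurons, a ratio of 36.5 (30.9 to 43.3). Mutant neurons gave a ratio of 34.9 (27.8 to 44.1) from 69.9 CPM in those with Hox UMIs. It was followed by Zfp503, a zinc finger repressor (ratio 18.7 in the control against 4.60 in the mutant library), C1ql3, a synaptic C1q-like protein (8.12 and 5.09), and Mab21l2 (7.35 and 4.29). Nts, Kitl, Tgfb2, Nab1, Crabp1, Nfix, Pdzrn4, Gfra1, Nr6a1, Nhlh1 and Pex5l made up the rest of the first 15, with the lower of the 2 ratios between 2.03 and 3.29. Crabp1, which binds retinoic acid in the cytosol, had the ratios farthest apart of the 15, at 1741 against 4.39 CPM in the control and 24.2 against 10.6 CPM in the mutant library.

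Genes of the midbrain and first rhombomere differed among themselves in the Hox-carrying neurons. En1 stood at 12.6 CPM in control neurons with Hox UMIs and 86.1 CPM in those with none, a ratio of 0.15 (0.12 to 0.18), and at 43.4 and 128 CPM in mutant neurons, a ratio of 0.34 (0.28 to 0.40). En2 had ratios of 0.20 and 0.52, Lhx9 0.14 and 0.47 and Tfap2d 0.17 and 0.099 in the control and mutant library. Otx2, of the forebrain and midbrain, did not follow, at 1.02 (0.94 to 1.10) and 1.87 (1.70 to 2.06), nor did Sox14 (2.10 and 1.03) and Pou4f1 (1.38 and 0.94). Lhx2 had ratios of 1.66 and 0.46, and Gbx2 0.99 (0.11 to 3.96) and 0.36 (0.22 to 0.55). Slc17a6, the vesicular glutamate transporter, had ratios of 2.24 and 1.44. Meis2 and Gad2 were 5.62 and 5.47 times higher in the Hox-carrying neurons of the control library, whereas in the mutant library their ratios were 0.92 and 0.87. How much tissue behind the cerebellum each pool held is not given in the labels, and with 1 library per genotype it cannot be told apart from the genotype.

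Of 38 listed regulators and cofactors, 34 had at least 20 UMIs, and 13 were higher and 2 lower in the mutant library. Over all 21216 genes at that minimum, 13.9% were called higher and 9.04% lower. The median log2 ratio was 0.36, beside 0.06 over all genes tested. Cyp26a1, which degrades retinoic acid, had 0 control and 90 mutant UMIs, at least 24.2-fold higher. Cdx2, an activator of posterior Hox genes, had 0 and 24 UMIs, at least 6.10-fold higher. Both reached the minimum only through the mutant library, so a higher call was close to fixed for them. Gbx2, which sets the front of the hindbrain, went from 2.83 to 24.99 CPM. The cofactors Meis2 (ratio 2.58) and Pbx3 (1.89) were higher, though not every listed MEIS and PBX gene was. The retinoic acid receptors Rarg (2.28), Rarb (1.70) and Rara (1.64) were higher too. The 2 lower genes were Crabp1 (0.12) and Aldh1a3 (0.39), an enzyme that makes retinoic acid. Aldh1a2, which also makes it, went from 542 to 1182 UMIs and was higher at 2.21. Ezh2, Eed and Suz12, the core of Polycomb repressive complex PRC2, had ratios of 0.94, 0.83 and 1.16 and were not called, and Bmi1 of the other Polycomb complex was higher at 1.64.

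The noncoding genes of the clusters include antisense partners of the anterior members. Of 9 listed, 4 reached 20 UMIs, with a median log2 ratio of -0.80 among the 4. Of these, 3 were lower, beside 9.04% of all genes at the minimum: Hoxb3os (2543 and 1529 UMIs, ratio 0.61), Hoxaas2 (0.54) and Hoxaas3 (0.50). Hotairm1, at the anterior end of the Hoxa cluster, had 882 and 667 UMIs (0.77) and was not called. Of 10 genes next to the clusters 8 reached the minimum, and Snx11 (2.12) and Calcoco1 (1.79) were higher, beside 13.9% of all genes. Mtx2 and Lnpk beside Hoxd (1.07 and 0.99) and Copz2 beside Hoxb (0.93) were not called.

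Among mutant lesion-gate cells, the 57 with UMIs of groups 6 to 13 had Smarca4 at 55.6 CPM (41.0 to 73.7), and the 4533 with no Hox UMI at 51.2 CPM (49.4 to 53.1). Axin2, a direct Wnt target, stood at 219 CPM (189 to 252) and 212 CPM (209 to 216). Cdx2 was not detectable at this depth in the 57 cells, with 0 UMIs, and had 10 UMIs in the 4533. The 39 lesion-gate cells with Hoxb1 had Smarca2, the ATPase paralogue of Smarca4, at 362 CPM (310 to 419) against 138 CPM (135 to 141) in cells with no Hox UMI, and Pbx3 at 217 against 601 CPM. Rarb was at 24.3 CPM (15.1 to 37.2) in the cells with posterior UMIs and 7.99 CPM (7.26 to 8.77) in those with none. It was at 20.6 CPM (16.1 to 26.0) in lesion-gate cells with groups 2 to 5 only and at 24.8 CPM (12.8 to 43.3) in those with Hoxb1, with intervals that overlap that of the posterior cells.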

How the data were processed

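Single-cell 3' RNA sequencing was deposited as raw UMI counts, a matrix of genes by barcodes per library. The authors' tool was Cell Ranger 7.0.1 and the build mm10, per the submitters' processing notes. Which annotation release was used, whether introns were counted, how strand was treated and how barcodes were called: not given in the sources used. The control library held 21457 barcodes and the mutant library 21596. Cells needed at least 1000 UMIs, 500 genes and at most 10% mitochondrial UMIs. Scrublet in scanpy 1.11.5 (expected rate 16%) marked 843 control (5.01%) and 618 mutant (3.75%) doublets, which were removed. Marker gates without Hox genes set the classes, with thresholds set on the markers alone, and cells passing several gates were kept apart.

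UMIs were summed over cells and divided by all UMIs of those cells. Intervals are exact Poisson, binomial (Clopper-Pearson) or conditional binomial at 95%, and a count of 0 allows 3 UMIs. UMIs of 1 cell are not independent, so the intervals are too narrow where few cells hold a gene. The call rule was tested on simulated Poisson counts, drawn independently for each gene over the whole library. Such counts cannot show how the rule behaves where few cells hold a gene. Members with at least 100 UMIs are described with both values and others by count or as named after their values were seen. Genes like the members were those at 20 CPM or more in neurons with 2 Hox UMIs in both libraries, ranked by the lower log2 ratio (with 1 CPM added to each level), first 15. Members, lists and the minimum of 20 UMIs were chosen with earlier results of these data known. Alternatives were no cell filter, no doublet caller, haemoglobin left out of totals, stricter gates, several-gate cells assigned, other thinning depths, a 2-fold rule, no UMI minimum, lesion-gate cells left out and the richest cells left out. Tools were Python 3.11.15, numpy 2.4.6, scipy 1.17.1, pandas 2.3.3 and matplotlib 3.10.9. Values of some members and listed genes, counted in the totals, are not reported here. Coordinates are from GENCODE M21, where 32158 of 32285 identifiers matched.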

Additional observations from a re-analysis of the deposited data

Results flagged for a closer look

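Hox UMIs in erythroid cells went the opposite way from neurons. Their mutant to control ratio was 10.98 (1.69 to 462), from 1 control and 15 mutant UMIs, whereas neurons stood at 0.40. The difference between the classes was not tested. The 15 mutant UMIs came from 8 of 236 cells, and at 1 more marker per gate the ratio was 1.79, and without lesion-gate cells it was 5.096.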

How the results depend on the processing

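No paired analysis was possible because each genotype had 1 library. Among the class, group and gene ratios recomputed, neuron subclasses apart, 2 passed to the other side of 1, neither of them called: granule cell precursors with cells of several gates assigned (1.02) and Hoxa5 without lesion-gate cells (1.17). The share of Hox UMIs held by neurons was 66.1% in the control and 43.9% in the mutant one with no cell filter, 66.3% and 39.3% with 1 more marker per gate, and 72.2% and 49.7% with cells of several gates assigned. With no doublet caller it was 66.8% in the control. Neurons with 2 or more Hox UMIs made up 6.18% and 3.40% with no thinning and 4.36% and 1.502% at 5000 UMIs, and those with 1 or more 6.08% and 3.32% at 3000. The neuron ratio was 0.37 with 1 more marker. Members higher numbered 8 with no minimum of UMIs, and members lower 7 at 2-fold. The share of all genes called was not computed at those settings, so these counts have no background. The next values were chosen after seeing the data. Without lesion-gate cells the ratio was 0.48 for the library, 0.46 for neurons, 0.26 for mural cells, 0.43 for groups 1 to 5 and 0.40 for these in neurons, and neurons held 50.25% of mutant Hox UMIs. Without the 3 richest cells neurons stood at 0.37 for all members and 0.32 for groups 1 to 5, and held 68.8% and 43.7%. Ratios of neuron subclasses without their richest cells stand with those subclasses. With 1 library per genotype, depth and the spread between animals limit every ratio, and groups 10 to 12 were not detectable at this depth.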

Other observations

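Among neuron genes outside the comparisons, Th, the enzyme of catecholamine synthesis, stood at 7.85 CPM in the Hox-carrying neurons of the control library and 0.134 CPM in neurons with no Hox UMI, while the Hox-carrying neurons of the mutant library had none. Neurod1, of the granule lineage, was at 337 against 702 CPM in the control and 369 against 255 CPM in the mutant library. Aldh1a2, which makes retinoic acid, was at 6.95 against 2.20 CPM in the mutant library, and 0.471 against 0.232 CPM in the control library.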
